A study of Mus musculus with 12 samples.

Results

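A set of 9 genes of B cell identity and the B cell receptor was followed across 12 RNA sequencing libraries of mouse spleen. They are Pax5, Ebf1, Spib, Ms4a1, Cd79a, Cd79b, Tnfrsf13c, Cd22 and Blk. They were taken by gene symbol as a named list that no measured value enters, although the list was drawn up with earlier results of these data known, and are 9 of the 19376 rows of the expression table. The 4 groups, with 3 libraries each, were untreated control, alginate oligosaccharides (AOS, short sugar chains cut from the seaweed polysaccharide alginate), busulfan, and busulfan followed by AOS. AOS was dosed at 10 mg/kg over a course of 5 weeks, and busulfan, an alkylating drug that crosslinks DNA and depletes blood-forming cells, was given once at 40 mg/kg. The labels call the strain of all groups IRC, and they give neither age nor sex. The tissue label reads "Cells" while the protocol names spleen. The labels of the drug-only libraries add a letter to the code given in the study design, and these were taken as busulfan without AOS. Whether each library stands for its own animal is not said, so the p-values describe variation among libraries, which may be technical.

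B cells are the lymphocytes that make antibody, and the spleen holds a large resident pool of them in its follicles and marginal zone. Their identity is set by a chain of transcription factors: Ebf1 commits a precursor to the lineage, Pax5 fixes that choice by switching on B cell genes and silencing those of other lineages, and Spib, an ETS family factor, acts in mature B cells. The antigen receptor signals through Cd79a and Cd79b, whose tails are phosphorylated by Src family kinases such as Blk, and Cd22 is an inhibitory coreceptor that binds sialic acid. Ms4a1 encodes CD20, a surface protein of mature B cells, and Tnfrsf13c encodes the BAFF receptor, which passes the survival signal that mature B cells need.

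The genes are all protein coding and lie on 6 chromosomes (RefSeq coordinates, GRCm38.p6). Among the transcription factor genes, Pax5 (Entrez 18507) spans chr4:44524748-44710694 on the minus strand, Ebf1 (Entrez 13591) chr11:44618100-45008096 on the plus strand and Spib (Entrez 272382) chr7:44525995-44532087 on the minus strand. The receptor subunits are Cd79a (Entrez 12518, chr7:24897497-24901858, plus) and Cd79b (Entrez 15985, chr11:106311341-106314562, minus). Tnfrsf13c (Entrez 72049) lies at chr15:82221742-82224380 and Cd22 (Entrez 12483) at chr7:30865404-30880342, both on the minus strand. Ms4a1 (Entrez 12482) lies at chr19:11249679-11266149 and Blk (Entrez 12143) at chr14:63372837-63417187, also on the minus strand. The GENCODE annotation places transcripts of the opposite strand over exons of Pax5 (Gm12462, 125 shared bases, and 5730488B01Rik, 636) and of Cd22 (Gm29439, 479). Whether the counting used strand is not given in the sources used here, so reads of these pairs cannot be told apart.

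Promoter windows are shown for 4 of the genes because these members are the receptor subunit with the highest level, the 2 genes that passed the test in busulfan with AOS against AOS, and the receptor gene that moved least there. Each window holds 250 bases before and 50 bases after a RefSeq gene start, on the strand of the gene, build GRCm38.p6, and 6 of the 9 genes had such an entry. Capitals mark 4 motifs searched on both strands: CCCNNGGG, the palindrome bound by Ebf1, GGAAGT, a core of ETS factors such as Spib, ATTTGCAT, the octamer of POU factors, and CANNTG, the E box of E proteins. The windows lie at chr7:24897247-24897546 (plus strand) for Cd79a, chr7:44532022-44532321 (minus) for Spib, chr7:30878979-30879278 (minus) for Cd22 and chr15:82224331-82224630 (minus) for Tnfrsf13c. The Cd22 window lies wholly inside the gene span given above, which begins at base 30880342 on the minus strand. It is therefore the window of a start within the gene.
Cd79a: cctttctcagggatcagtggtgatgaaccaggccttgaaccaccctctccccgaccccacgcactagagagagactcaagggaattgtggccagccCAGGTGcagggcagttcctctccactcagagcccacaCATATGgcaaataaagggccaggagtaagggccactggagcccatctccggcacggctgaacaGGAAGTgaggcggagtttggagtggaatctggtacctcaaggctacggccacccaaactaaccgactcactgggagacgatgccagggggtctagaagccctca
Spib: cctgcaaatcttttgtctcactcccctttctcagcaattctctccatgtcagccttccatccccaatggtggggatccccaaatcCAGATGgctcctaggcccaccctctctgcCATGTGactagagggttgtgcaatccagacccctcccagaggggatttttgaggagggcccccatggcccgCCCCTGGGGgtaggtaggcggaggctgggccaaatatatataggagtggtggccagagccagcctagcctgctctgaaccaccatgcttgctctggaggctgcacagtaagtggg
Cd22: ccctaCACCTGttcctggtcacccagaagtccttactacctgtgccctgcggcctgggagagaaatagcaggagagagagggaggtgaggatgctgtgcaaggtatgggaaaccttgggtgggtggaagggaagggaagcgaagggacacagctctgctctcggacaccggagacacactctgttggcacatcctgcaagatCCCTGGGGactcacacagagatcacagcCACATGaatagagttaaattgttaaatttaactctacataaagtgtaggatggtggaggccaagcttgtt
Tnfrsf13c: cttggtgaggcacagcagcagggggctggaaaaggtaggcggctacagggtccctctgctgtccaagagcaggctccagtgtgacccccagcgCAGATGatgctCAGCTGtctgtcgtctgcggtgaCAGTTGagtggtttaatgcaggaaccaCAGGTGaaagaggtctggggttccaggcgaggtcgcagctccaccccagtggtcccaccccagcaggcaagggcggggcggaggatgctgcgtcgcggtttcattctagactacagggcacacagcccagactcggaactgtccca
The Cd79a window held GGAAGT starting 54 bases before the gene start and E boxes at 154 and 117 bases before it. The Spib window held 2 overlapping Ebf1 palindromes at 65 and 64 bases before the start. The Cd22 window held 1 at 48 bases before its start within the gene. Tnfrsf13c had 4 E boxes, between 157 and 96 bases before the start, and none of the other 3 motifs. Over the 7 windows of the 6 genes (Ebf1 has 2 starts), the palindrome was in 2, GGAAGT in 2, the octamer in 0 and the E box in 6. Of all 32851 RefSeq mouse promoter windows of this length, 13.7% held the palindrome, 23.8% held GGAAGT, 1.74% held the octamer and 72.3% held an E box. These matches describe the letters of the windows only.

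Library totals ran from 15051297 to 16241883 counts, and the 9 genes were well above the 3-count limit of a library, 0.185 to 0.199 CPM (counts scaled to library size). Some libraries carried high levels of pancreatic acinar or fat cell transcripts, and how these came into the libraries was not tested. The summed level of 15 pancreatic acinar enzyme genes was 1635, 22703 and 2877 CPM in the AOS libraries against 15.4 to 1357 CPM in the other 9, and 6 adipocyte genes summed to 210.0 CPM in control 1 against 6.81 to 39.5 CPM elsewhere. Counts of called genes are therefore given also without control 1 and AOS 2, the libraries with the highest of these sums. That setting keeps AOS 1, AOS 3 and library 1 with both agents, whose acinar sums were the next highest. With all 3 AOS libraries above the other 9, the acinar level cannot be told apart from the AOS group.

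All 9 genes were read in each library, at 72.2 CPM or more. Summed over the 9, the level was 2576 to 3344 CPM in controls and 3152 to 3648 with AOS, 1914 to 2722 after busulfan and 2251 to 2787 with both agents. The AOS libraries lay above all libraries with both agents, while controls and busulfan libraries overlapped. Per transcript length (FPKM, depth- and length-scaled fragments), Cd79a led in controls at 623 ± 121 (SD, n = 3), followed by its partner Cd79b at 383 ± 70.2. Ms4a1 followed at 274 ± 37.5, Cd22 at 131 ± 20.5, Spib at 118 ± 20.7, Tnfrsf13c at 86.2 ± 10.4 and Blk at 71.6 ± 12.1. The transcription factors Pax5 (51.8 ± 10.7) and Ebf1 (25.2 ± 3.40) had the lowest levels. Neighbours in this order kept their places in all 12 libraries, except Cd22 and Spib (Cd22 higher in 10 of 12) and Tnfrsf13c and Blk (Tnfrsf13c higher in 9 of 12, and in 0 of 3 with both agents). In controls the ranges of Cd22 and Spib, Spib and Tnfrsf13c, Tnfrsf13c and Blk, and Blk and Pax5 overlapped. Within each of the 3 control libraries, however, the first gene of each of these pairs was the higher, and the differences were not tested.

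**Figure D1:**
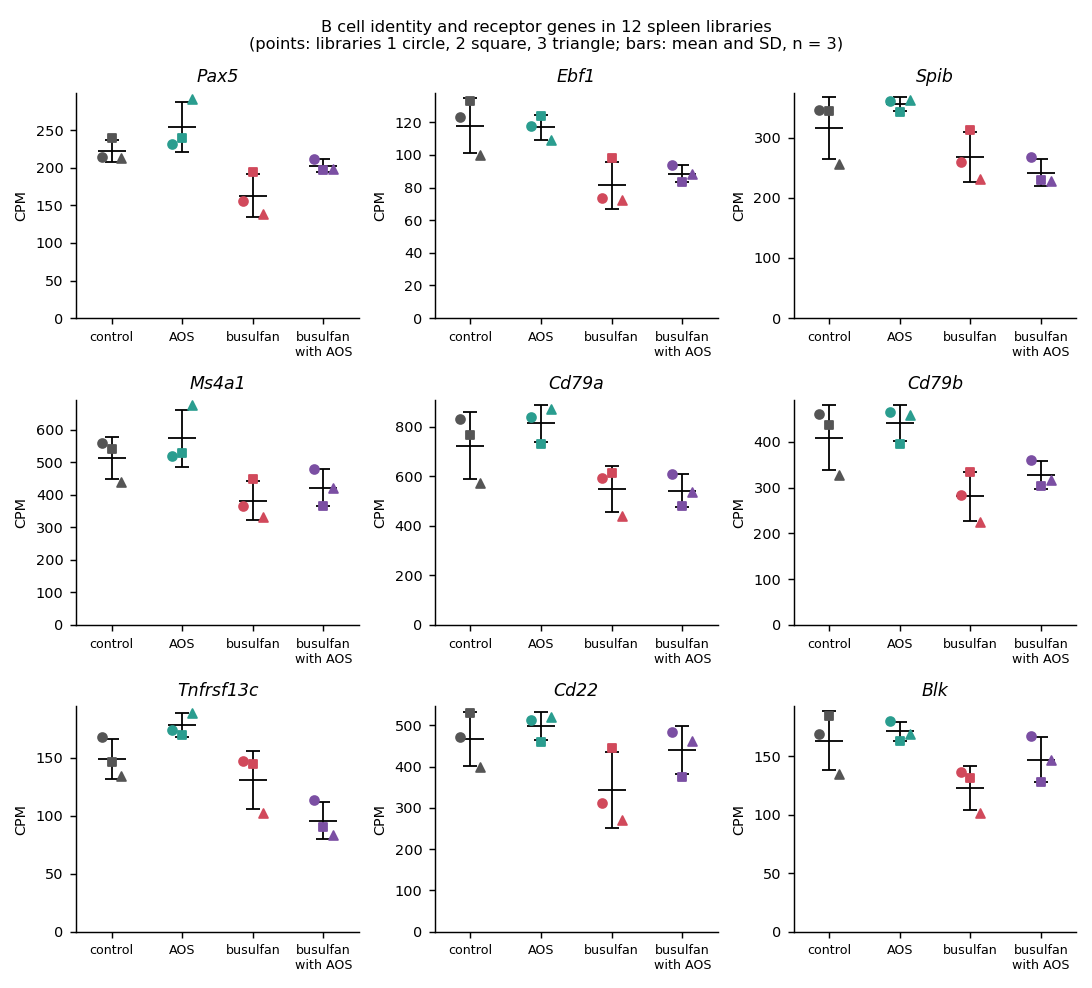
Level in CPM on TMM-scaled library sizes (linear axes from 0) of each of the 9 genes in the 12 libraries, with the group mean and SD (n = 3). Pax5 and Ebf1 have every busulfan library below every control. Tnfrsf13c has its lowest group mean with both agents (libraries at 83.2 to 114 CPM), which overlap busulfan 3 at 102 CPM.

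Busulfan against control asks what the drug alone left in the spleen. All 9 genes had a lower mean after busulfan, with a median log2 fold change of -0.42 against -0.01 over all 15079 genes tested, but 0 of the 9 passed edgeR's quasi-likelihood test at an adjusted p under 0.05. The background is small: 0.338% of all genes were called lower and 0.471% in either direction. An unadjusted p under 0.05 was reached by 7 of the 9, all but Spib and Tnfrsf13c, and by 20.6% of all genes. DESeq2 called 3 of the 9 lower, Cd79b, Ebf1 and Pax5. Its background was larger, with 514 genes called lower where edgeR called 51. In whole spleen RNA, fewer B cells and less RNA of these genes per B cell cannot be told apart.

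Among the transcription factors, Ebf1 stood at 123, 133 and 100 CPM in controls and at 73.6, 98.2 and 72.2 CPM after busulfan. The groups did not overlap, though busulfan 2 came close to control 3. The difference of log2 levels was -0.54 ± 0.13 SE (95% interval -0.83 to -0.26, edgeR adjusted p = 0.0724). Pax5 stood at 215, 239 and 213 CPM in controls and at 156, 195 and 139 CPM after busulfan, again with no overlap and with busulfan 2 as the highest treated library. Its log2 difference was -0.45 ± 0.12 (edgeR adjusted p = 0.0931). Groups apart in this direction were seen for 12.6% of all genes tested. Spib overlapped, with 257 to 347 CPM in controls and 231 to 313 CPM after busulfan (log2 difference -0.24 ± 0.13, edgeR adjusted p = 0.335).

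Of the receptor genes, Cd79b had the largest difference, 462, 438 and 328 CPM in controls against 283, 334 and 226 CPM (log2 -0.54 ± 0.16, edgeR adjusted p = 0.103). Control 3 lay just below busulfan 2, so the groups overlapped. Cd22 (-0.45 ± 0.17), Ms4a1 (-0.42 ± 0.15), Blk (-0.41 ± 0.14) and Cd79a (-0.40 ± 0.16) had similar log2 differences with adjusted p between 0.144 and 0.202. Tnfrsf13c differed least, with 168, 146 and 134 CPM in controls against 147, 145 and 102 CPM (log2 -0.18 ± 0.15, edgeR adjusted p = 0.514). Busulfan 2 had the highest level of its group for all of the 9 but Tnfrsf13c and Blk. Without that library edgeR called 3 of the 9 lower, Cd22, Ebf1 and Pax5. The calls over all genes rose as well, to 250 lower from 51 with all libraries. Busulfan 2 was also the library of its group with the least neutrophil transcript, 1344 CPM summed over 10 markers against 3110 and 7053 CPM.

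Busulfan with AOS against AOS compares the drug in mice that all received AOS. Tnfrsf13c and Spib fell, 2 of the 9 genes, where 3.45% of all genes were called lower and 5.81% in either direction. All 9 means were lower, with a median log2 fold change of -0.43 against 0.00 over all genes, and 7 of the 9 had an unadjusted p under 0.05, as had 25.6% of all genes. The libraries of the groups did not overlap for 7 genes, all but Cd22 and Blk, which was the case for 17.1% of all genes in this direction.

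Tnfrsf13c stood at 174, 169.6 and 189 CPM with AOS and at 114, 90.6 and 83.2 CPM with both agents. Every AOS library was far above every library with both agents, and AOS had the tightest values of the 4 groups. The gene fell by 46.1% (log2 fold change -0.89 ± 0.15 SE, 95% interval -1.23 to -0.55, edgeR adjusted p = 0.0157). Leaving out 1 library at a time, the call was lost without library 2 or library 3 of the group with both agents (adjusted p = 0.0840 and 0.0505) and held in the other 10 cases. Without control 1 and AOS 2 together the log2 fold change was -0.92 with an adjusted p of 0.0559.

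Spib stood at 362, 343 and 363 CPM with AOS and at 268, 229 and 228 CPM with both agents, without overlap. It fell by 32.1% (log2 -0.56 ± 0.13 SE, 95% interval -0.85 to -0.26, edgeR adjusted p = 0.0404). This call lay close to the threshold: it was lost on leaving out control 1, any AOS library, busulfan 1 or any library with both agents, with adjusted p up to 0.152, and without control 1 and AOS 2 together the adjusted p was 0.0868. Its log2 fold change stayed between -0.64 and -0.51 in those leave-outs.

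The receptor subunit Cd79a stood at 839, 730.4 and 870.4 CPM with AOS and at 609.9, 478 and 536 CPM with both agents (log2 -0.59 ± 0.16, edgeR adjusted p = 0.0572). Its values did not overlap, yet the test was not passed. Ms4a1 (-0.44 ± 0.15), Cd79b (-0.43 ± 0.16), Ebf1 (-0.40 ± 0.13) and Pax5 (-0.32 ± 0.12) were also apart in every library, with adjusted p between 0.0865 and 0.129. Cd22 differed least of the 9, 513, 459 and 521 CPM with AOS against 483, 375 and 462 CPM (log2 -0.18, 95% interval -0.56 to 0.21, edgeR adjusted p = 0.564), and Blk was next at -0.22 ± 0.14 (adjusted p = 0.365). Heat shock genes differed between the same groups, with sums over 9 genes of 4992 to 7311 CPM with AOS and of 2521 to 2784 CPM with both agents. Of these 9 genes 4 were called lower, and their part in the B cell results was not tested.

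**Figure D2:**
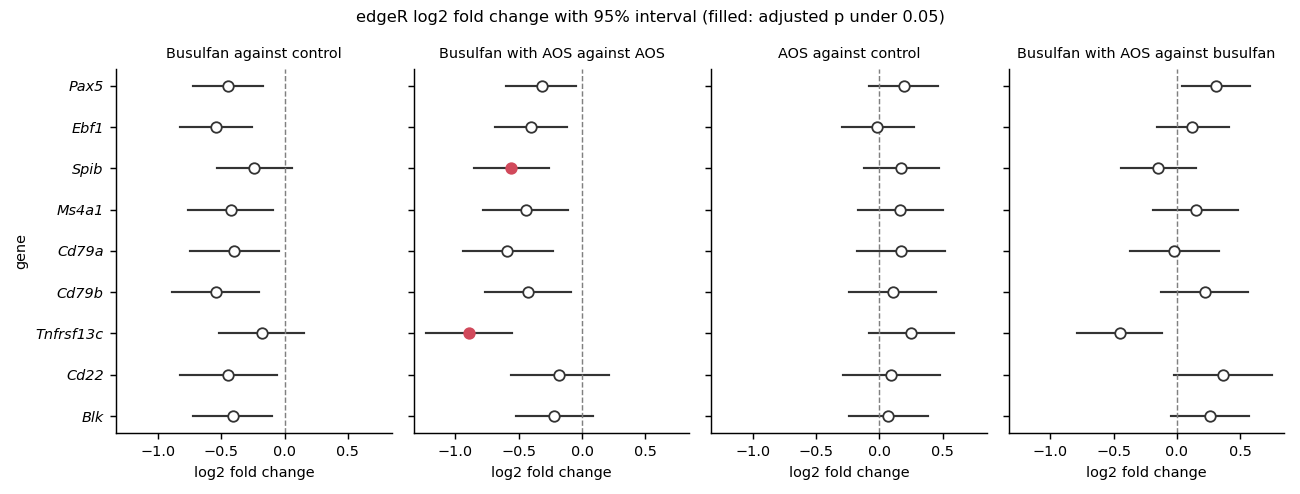
The log2 fold change of each gene from edgeR with its 95% interval in 4 comparisons, filled where the adjusted p was under 0.05. Only Spib (-0.56) and Tnfrsf13c (-0.89) in busulfan with AOS against AOS are filled, and the points of the 2 busulfan comparisons lie left of 0 for all 9 genes.

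Averaging the busulfan difference over mice with and without AOS uses all 12 libraries. Then 7 of the 9 genes fell, all but Cd22 and Blk, against 5.13% of all genes called lower and 8.23% in either direction. Of the 9, Tnfrsf13c changed most and fell by 31.1% (log2 -0.54 ± 0.11 SE, edgeR adjusted p = 0.0238). Cd79a fell by 28.9% and its partner Cd79b fell by 28.6%, and Ebf1 fell by 27.9% (adjusted p = 0.0220), while Ms4a1 fell by 26.0%, Spib fell by 24.1% and Pax5 fell by 23.4%. The 2 genes that missed the threshold were Blk (log2 -0.31 ± 0.10, adjusted p = 0.0679) and Cd22 (-0.31 ± 0.12, adjusted p = 0.121), whose intervals also lay below 0. The 9 changes spanned -0.54 to -0.31, with SE of 0.09 to 0.12. Pax5 missed the threshold with limma on the deposited FPKM values (log2 -0.45, adjusted p = 0.0576). It also missed it with edgeR on counts in several leave-outs, such as without control 1 (edgeR adjusted p = 0.0637). Pax5 was the member whose count per FPKM, a measure of the length used, varied most between libraries. It varied 1.58-fold, against 1.01-fold to 1.07-fold for the other 8, and whether this bears on the call was not tested.

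The count of 7 rested on several libraries. It was 0 without control 1, control 2, AOS 1 or library 2 with both agents, 1 without busulfan 3, 2 without AOS 3 or library 3 with both agents, 3 without busulfan 1 and 5 without AOS 2. It was 8 without control 3 or busulfan 2, where edgeR called 2051 and 1174 genes in all. Without control 1 and AOS 2 together it was 0, where edgeR called 9 genes in all. The fold changes kept their sign in every one of these cases.

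AOS against control asks what AOS did on its own. No gene of the 9 was called, and edgeR called 0 of the 15079 genes (0%), with 894 (5.93%) at an unadjusted p under 0.05, none of them among the 9. DESeq2 called 77 genes and 0 of the 9. Of the 9 log2 differences 8 were above 0, and the median was 0.16. Tnfrsf13c was the 1 gene with all AOS libraries above all controls, 169.6 to 189 against 134 to 168 CPM, at a log2 difference of 0.25 (95% interval -0.08 to 0.59, edgeR adjusted p = 0.852), and 5.63% of all genes were apart in this way. Ebf1 was at -0.02 (95% interval -0.30 to 0.27).

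Busulfan with AOS against busulfan asks whether AOS altered the state after the drug. None of the 9 genes was called, where 3.02% of all genes were, and 2 had an unadjusted p under 0.05, a share near the 21.2% of all genes. These were Pax5, at 212, 197 and 199 CPM with both agents against 156, 195 and 139 CPM (log2 0.31 ± 0.12, edgeR adjusted p = 0.179), and Tnfrsf13c, at 114, 90.6 and 83.2 against 147, 145 and 102 CPM (log2 -0.45 ± 0.15, edgeR adjusted p = 0.126). Pax5 was higher in each library with both agents, narrowly so against busulfan 2, which 14.3% of all genes showed, whereas the values of Tnfrsf13c overlapped. Of the 9, DESeq2 called Tnfrsf13c alone (adjusted p = 0.0467), among 1146 genes that it called over all, where edgeR called 456. The other 7 log2 differences ran from -0.15 for Spib to 0.36 for Cd22 (95% interval -0.02 to 0.75).

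Against untreated controls, the mice with both agents showed 0 of 9 genes called, where 0.875% of all genes were, and 4 had an unadjusted p under 0.05, beside 17.5% of all genes. All 9 means were lower, with a median log2 difference of -0.32. Tnfrsf13c was furthest at -0.64 ± 0.15 (edgeR adjusted p = 0.0762), followed by Ebf1 at -0.42 ± 0.13 (adjusted p = 0.129). DESeq2 called these 2, among 750 genes that it called over all, where edgeR called 132. Pax5, Ebf1 and Tnfrsf13c had no overlap between the groups, which 12.2% of all genes showed in this direction. For Pax5 the gap was narrow, 212 CPM in library 1 with both agents against 213 CPM in control 3. Cd22 (-0.08, 95% interval -0.47 to 0.30) and Pax5 (-0.13, 95% interval -0.40 to 0.14) had the smallest differences. These comparisons share the libraries of 1 group or another, so their values are set side by side and are not independent of each other.

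The interaction term asks whether the busulfan difference depended on AOS. It was not passed by any of the 9 genes, where 0.484% of all genes passed. Tnfrsf13c came nearest, at -0.71 ± 0.21 SE (95% interval -1.18 to -0.23, edgeR adjusted p = 0.141). DESeq2 called it (adjusted p = 0.0371), among 618 genes that DESeq2 called over all, where edgeR called 73. The other 8 terms lay between -0.32 for Spib and 0.27 for Cd22, with SE of 0.17 to 0.25 and with 95% intervals that all included 0.

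The members varied among themselves as well as together. With each gene centred on its mean over the 12 libraries and set against the mean of the other 8 in the same library, Ms4a1 and Cd79b stayed closest to the rest, with a root-mean-square (RMS) distance of 0.08 on the log2 scale each, and Tnfrsf13c was furthest at 0.26. Tnfrsf13c was 0.10 to 0.15 above the others in the AOS libraries, 0.14 to 0.43 above them with busulfan, and below them with both agents (-0.26, -0.31 and -0.56). Cd22 went the other way in that last group, at 0.20, 0.11 and 0.34. So did Blk (0.19, 0.09 and 0.19), Pax5 (0.05, 0.25 and 0.15) and, by little, Cd79b (0.03, 0.07 and 0.03). Per transcript length, the ratio of Tnfrsf13c to Cd22 was 0.368 to 0.495 in the libraries with both agents and 0.565 to 0.967 in the other 9. The ratio of Tnfrsf13c to Blk was 0.748 to 0.933 there and 1.04 to 1.47 in the rest. The ratio of the receptor partners Cd79a and Cd79b was 1.45 to 1.56 there and 1.60 to 1.93 in the rest. These ratios were chosen after their values were seen and carry no test.

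**Figure D3:**
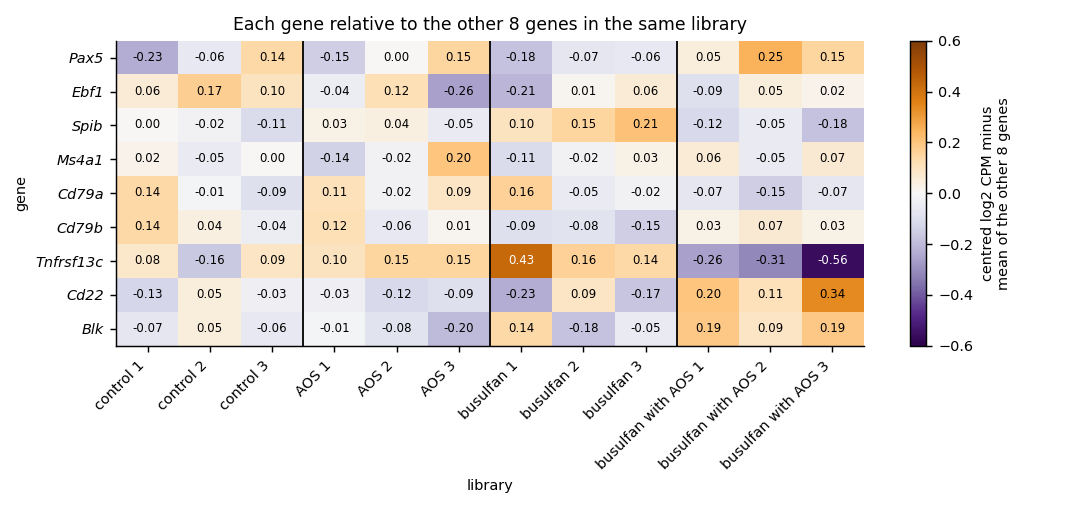
Each gene relative to the mean of the other 8 in the same library, as centred log2 CPM (colour scale and printed values). The row of Tnfrsf13c turns from values of 0.14 to 0.43 with busulfan to values of -0.56 to -0.26 with both agents. There Pax5, Cd79b, Cd22 and Blk lie above 0 in every library.

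Other genes of the B cell pathways were counted by lists, each to be read against the shares of all genes given above. Among 16 other transcription factors of B cells, 0 were called in busulfan against control or in busulfan with AOS against AOS, and 7 fell in the averaged comparison (Bach2, Bcl11a, Foxo1, Foxp1, Klf2, Mef2c and Pou2f2), with a median of -0.31. The 2 with the smallest p there were Foxo1, which drives recombinase and receptor genes in B cells (138 ± 10.5 CPM in controls and 144 ± 7.84 with AOS, 98.4 ± 16.3 after busulfan and 116 ± 9.01 with both, log2 -0.40, edgeR adjusted p = 0.0223), and Foxp1, a forkhead factor of B cell development (log2 -0.42, edgeR adjusted p = 0.0253). Their calls held in 8 and 6 of the 12 leave-outs of a library. The count of the list ran from 0 to 9 over those leave-outs, with 0 without control 1, control 2 or library 2 with both agents. Without control 1 and AOS 2 together, 0 genes of this list or of the next 5 B cell lists fell in busulfan with AOS against AOS or in the averaged comparison.

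Of 20 genes of receptor signalling, 3 fell in busulfan with AOS against AOS and 5 in the averaged comparison, among the latter Bank1, Cr2 and Prkcb. Their median log2 fold changes were -0.22 and -0.17, beside 0.00 over all genes in the former. In busulfan with AOS against AOS, Cr2, the complement receptor CD21, was at 484 ± 38.9 CPM with both agents against 728 ± 66.5 CPM with AOS (log2 -0.59, edgeR adjusted p = 0.0474). Syk, the kinase that binds the phosphorylated tails of Cd79a and Cd79b, was at 502 ± 52.9 against 691 ± 60.6 CPM (log2 -0.46, edgeR adjusted p = 0.0351). For both genes the groups stood apart in every library. The calls held in 2 and 6 of the 12 leave-outs, respectively. The scaffold Bank1 had the smallest p of this list in the averaged comparison (log2 -0.39, edgeR adjusted p = 0.0250), a call that held in 7 of 12 leave-outs. The counts of 3 and 5 ran from 0 to 4 and from 0 to 8 over the leave-outs, and both were 0 without control 1, AOS 1 or library 2 with both agents. The former was also 0 without AOS 2, AOS 3 or library 3 with both agents, and the latter without control 2 or busulfan 3.

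Among 8 inhibitors of the receptor (median log2 -0.18 in busulfan with AOS against AOS and -0.15 averaged), Siglecg, a sialic acid receptor of the same family as Cd22, fell from 310.4 ± 8.33 to 220.1 ± 23.2 CPM in busulfan with AOS against AOS (log2 -0.50, edgeR adjusted p = 0.0325). It and the ubiquitin ligase gene Cblb fell in the averaged comparison (log2 -0.47 and -0.31, edgeR adjusted p = 0.0168 and 0.0254). The averaged call of Siglecg held in 11 of 12 leave-outs, lost only without library 2 with both agents, its call against AOS held in 7, and the averaged call of Cblb held in 6.

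The partners of the BAFF receptor were read from a list of 12 genes of the BAFF and APRIL system, whose median log2 fold change was -0.18 in busulfan with AOS against AOS and -0.12 averaged. The ligand BAFF itself, Tnfsf13b, was at 9.80 ± 0.408 CPM in controls and 9.77 ± 1.47 with AOS, 10.6 ± 3.29 after busulfan and 8.07 ± 0.637 with both agents, and its log2 difference was -0.27 in busulfan with AOS against AOS (edgeR adjusted p = 0.446). It was named as the ligand and not by the rule for named genes. Downstream, Nfkb2, the NF-kB gene whose product is processed on signals of the BAFF receptor, fell from 158 ± 7.97 to 108 ± 7.36 CPM in that comparison (log2 -0.55 ± 0.11, edgeR adjusted p = 0.0222). Traf2, an adaptor of the receptor, fell from 51.5 ± 1.08 to 43.2 ± 0.666 CPM (log2 -0.25, adjusted p = 0.0419). For both genes the AOS libraries lay above all those with both agents, and the calls held in 7 and 3 of 12 leave-outs. A second receptor of the family, Tnfrsf13b (TACI), had another pattern, with 146 ± 16.8 CPM in controls and 146 ± 11.9 with AOS, 102 ± 8.99 after busulfan and 133 ± 13.7 with both (averaged log2 -0.33, adjusted p = 0.0327). The kinase gene Map3k14 fell in the averaged comparison as well (-0.32, adjusted p = 0.0424), a call that held in 2 of 12 leave-outs against 4 for Tnfrsf13b. The 2 genes of the list called lower in each of these comparisons became 0 to 2 and 0 to 4 over the leave-outs.

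Among the 9 genes of B cell precursors, Il7r, Cd93 and Vpreb3 had group means of 15.2 to 74.5 CPM and the rest of 4.72 CPM or less. Of the 9, 7 passed the filter on low counts. Their median was above 0, at 0.11 in busulfan with AOS against AOS and 0.21 averaged. Vpreb3, whose product binds immunoglobulin chains early in their assembly, fell from 24.2 ± 2.82 to 15.2 ± 2.92 CPM in busulfan with AOS against AOS (log2 -0.67, edgeR adjusted p = 0.0473), which held in 0 of 12 leave-outs, and in the averaged comparison (-0.51, adjusted p = 0.0333), which held in 4. Dntt, the polymerase that adds bases at antigen receptor joints, was at 3.30 ± 1.24 CPM in controls and 1.62 to 2.18 CPM in the other group means (averaged log2 -0.72, adjusted p = 0.144). The recombinase gene Rag2 and the surrogate light chain gene Vpreb2 did not pass the filter.

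The 12 surface genes and other markers of B cells had a median log2 fold change of -0.44 in busulfan against control and -0.32 averaged. Fcer2a, the low-affinity IgE receptor CD23, was the 1 gene of them called in busulfan against control, at 325, 289 and 228 CPM against 108, 184 and 106 CPM (log2 -1.08 ± 0.20, edgeR adjusted p = 0.0494). The 2 groups did not overlap, and the call held in 2 of 12 leave-outs and was lost without control 1 and AOS 2 together. In the averaged comparison Cd40, Fcer2a and Ralgps2 fell, with log2 -0.74 for Fcer2a (edgeR adjusted p = 0.0201) and -0.39 for Ralgps2, an exchange factor gene (edgeR adjusted p = 0.0349). These calls held in 8 and 2 of 12 leave-outs, and the averaged count of the list ran from 0 to 9, with 0 without control 1, control 2, AOS 1 or library 2 with both agents. Cd180, a Toll-like receptor homologue of B cells, was the gene of this list called higher in busulfan with AOS against busulfan, at 131, 134 and 122 CPM against 56.0, 94.4 and 73.1 CPM (log2 0.79 ± 0.16, edgeR adjusted p = 0.0305). It was named after its values were seen, and its call held in 7 of 12 leave-outs.

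Some genes outside the 9 had nearly the same profile over the libraries. Likeness was the RMS difference between a gene's centred log2 CPM and the mean centred profile of the 9 over the 12 libraries, among 11643 genes with a mean of at least 5 CPM. The median over those genes was 0.31, and the profile of the 9 itself had an RMS of 0.27. Among the 10 nearest were Ablim1 (0.073), Siglecg (0.074), Dock11 (0.077), Lbh (0.079), Gimap1 (0.084), Mllt6 (0.086), Retreg1 (0.087), Calhm2 (0.087) and Bin1 (0.088). Ablim1 shows the pattern, with 271, 304 and 238 CPM in controls, 321, 294 and 297 under AOS, 221, 251 and 182 after busulfan and 256, 204 and 240.2 with both. In it, control 3 is the lowest control and busulfan 2 the highest of the busulfan libraries, as in the mean of the 9. The same 10 genes came first with a minimum of 20 CPM.

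Other cell types moved with the groups too. The neutrophil list (10 markers, all in the table) summed to 435 to 833 CPM in controls and 627 to 934 with AOS, 1344 to 7053 after busulfan and 594 to 1598 with both, and 7 of its 10 genes rose in the averaged comparison. The NK cell list (6 markers) summed to 63.8 to 119 CPM in controls and 69.5 to 131 with AOS, against 36.7 to 45.2 with busulfan and 38.0 to 46.7 with both, and all 6 genes fell there. None of the 9 T cell markers measured was called, but all 9 had negative log2 fold changes in busulfan with AOS against AOS (median -0.39) and averaged (median -0.24), with sums of 429 to 648, 587 to 807, 369.8 to 599 and 431 to 590.1 CPM in the same order of groups. The plasma cell list (8 markers), the antibody-secreting end stage in which Pax5 is switched off, summed to 710.4 to 1328 CPM in controls and 846 to 915 with AOS, 1155 to 1348 after busulfan and 1242 to 1339 with both. Its members Derl3, Jchain and Prdm1 rose in the averaged comparison (log2 0.52, 0.61 and 0.47, edgeR adjusted p = 0.0310, 0.0475 and 0.0159). Prdm1 was at 16.6 ± 0.672 CPM with both agents against 9.12 to 10.6 CPM in the other group means. It was called higher with both agents against AOS, busulfan and control, and not in busulfan against control. Without control 1 and AOS 2 together, the averaged comparison called 0 neutrophil, 1 NK cell and 0 plasma cell genes. Over the leave-outs these counts ran from 0 to 10, 2 to 6 and 1 to 5, the lowest of the neutrophil and NK cell lists without library 2 with both agents, and that of the plasma cell list in 8 of the 12 cases. Haemoglobin transcripts took 5.56% to 7.45% of counts in controls and AOS libraries and at least 8.42% after busulfan alone. With both agents they took 8.25% and 9.79% in libraries 1 and 2, while library 3 lay within the range of the controls. Values are shares of a fixed total, and the part of these cell types in the lower B cell levels was not tested.

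**Figure D4:**
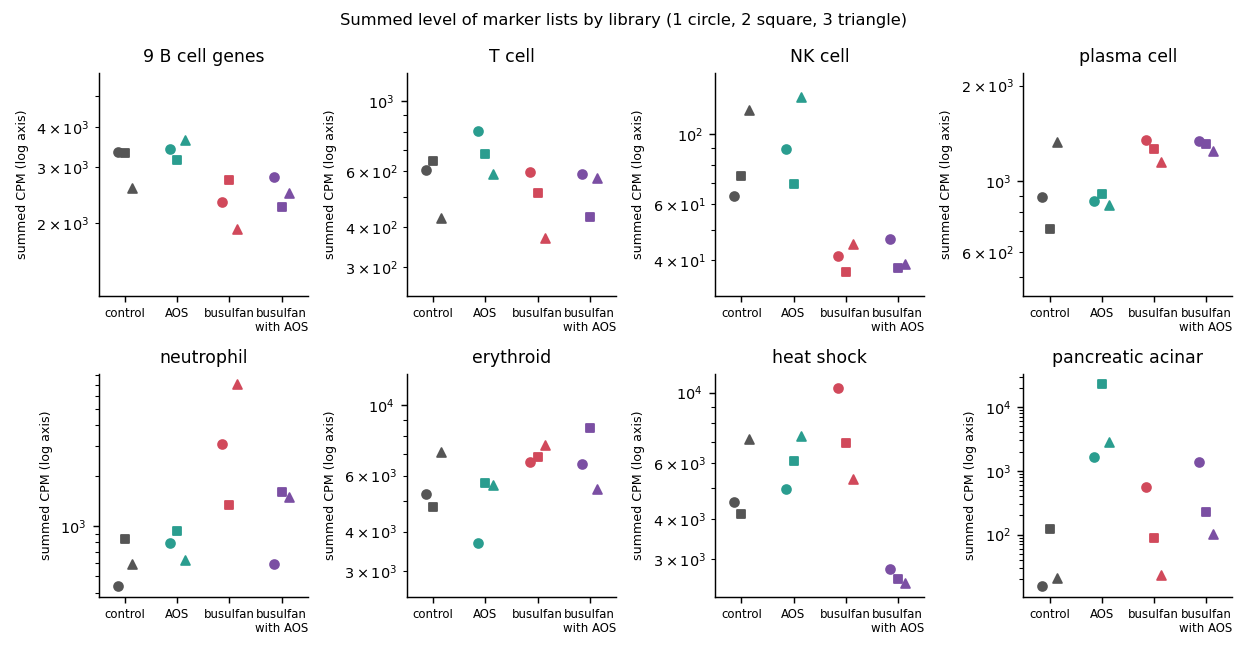
Summed CPM (log axes) of the 9 B cell genes and of 7 marker lists in each of the 12 libraries, coloured by group. The 9 genes are at 1914 to 2787 CPM in the 6 libraries with busulfan and at 2576 to 3648 CPM in the 6 without, while the NK cell list does not overlap between them (36.7 to 46.7 against 63.8 to 131 CPM).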

How the data were processed

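RNA sequencing of spleen was read from 1 table with 12 libraries in 4 groups of 3. The authors deposited expected counts per gene, which the file headers call read counts (75.7% of the values were whole numbers), and a normalised value per gene. That value was taken as FPKM as deposited, since count over value tracked library size (largest deviation 0.337%, 1227 genes of 2000 or more counts). Reads were placed on mm10, per the submitters' processing notes. Not given in the sources used here are the aligner, the counter and the strandedness. The 8 columns of group means were not used here.

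Expected counts were rounded to whole numbers for edgeR 4.0.16 (R 4.3.3): filterByExpr (15079 genes), TMM (factors 0.965 to 1.04), 1 model of group means over the 12 libraries, glmQLFTest, two-sided, Benjamini-Hochberg over all genes, called at an adjusted p under 0.05. The SE was the log2 fold change divided by the root of its F statistic. CPM use TMM-scaled library sizes and are given as mean ± SD. The fits were tested on simulated data before use. Replicate libraries differed beyond sampling noise (chi-square over degrees of freedom 15.9 to 72.7), so each counted as 1 replicate. Limits of 3 counts cover counting error only.

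The 9 genes and the 17 gene lists (169 genes) were chosen with earlier results of these data known. The text names all 9, of each other B cell list the genes called in busulfan against control or in busulfan with AOS against AOS and the 2 with the smallest p averaged, and the 10 genes most like the 9 in profile; exceptions are said to be such. A few genes that the rule picks are not reported here. Coordinates, promoter windows and Entrez matches came from RefSeq GRCm38.p6 (18233 of 18362 Entrez numbers matched), and gene overlaps from GENCODE. Alternatives were RLE factors, DESeq2 1.42.0, no filter, a filter of 1 CPM in 6 libraries, only the 2 groups compared, a replicate block, limma 3.58.1 on log2(FPKM + 1), library totals without 34 haemoglobin, acinar and heat shock genes, and each library left out in turn. Summaries used pandas 2.3.3 and numpy 2.4.6 in Python 3.11.15, with scipy 1.17.1; figures used matplotlib 3.10.9.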

Additional observations from a re-analysis of the deposited data

Results flagged for a closer look

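Tnfrsf13c, the BAFF receptor gene, was the 1 member for which every AOS library lay on one side of its comparison mean without busulfan and on the other side with it. Other members also had differences of opposite sign, such as Spib at 0.17 and -0.15 on the log2 scale, but not in every library (for Spib, library 1 with both agents was at 268 CPM, level with the busulfan mean of 268 CPM). Without the drug the AOS libraries (174, 169.6 and 189 CPM) were all above the control mean of 149 CPM, and after the drug the libraries with both agents (114, 90.6 and 83.2 CPM) were all below the busulfan mean of 131 CPM. The interaction of the 2 agents was -0.71 on the log2 scale (± 0.21 SE, edgeR adjusted p = 0.141), so the difference between the 2 effects did not pass the test over all genes. DESeq2 called it (adjusted p = 0.0371), among 618 genes that DESeq2 called for the interaction. Leaving out 1 library at a time, edgeR called it in 0 of 12 cases. How many of all genes had their AOS libraries on opposite sides of the comparison means in this way was not counted. Whether the pattern of Tnfrsf13c is unusual among all genes therefore cannot be said. No explanation was tested.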

How the results depend on the processing

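The 3 libraries per group limit precision, and most calls lay near the threshold. For the count of the 9 genes called, DESeq2 gave 3 in busulfan against control (0 in edgeR), 6 in busulfan with AOS against AOS (2), 1 in busulfan with AOS against busulfan (0), 2 in busulfan with AOS against control (0) and 1 for the interaction (0). In busulfan with AOS against AOS the count was 4 with only the 2 groups compared, 1 with limma on FPKM and 0 without control 1 and AOS 2 together, a setting chosen after seeing the data, which also gave 0 for the averaged comparison (7). Leaving out 1 library at a time, the counts ran from 0 to 3 in busulfan against control, 0 to 3 in busulfan with AOS against AOS, 0 to 8 averaged, 0 to 0 in AOS against control, 0 to 0 and 0 to 1 in the group with both agents against busulfan and against control, and 0 to 0 for the interaction. Over all genes, in the same order of comparisons, the counts were 71, 876, 1241, 0, 456, 132 and 73 in edgeR, with leave-one-out ranges of 0 to 470, 28 to 913, 83 to 2051, 0 to 2, 45 to 531, 3 to 173 and 8 to 110. DESeq2 called 889, 1750, 2352, 77, 1146, 750 and 618 genes. With no filter 42 genes were called in busulfan against control and 43 for the interaction. With only the 2 groups compared the counts were 0 in busulfan against control, 440 in busulfan with AOS against AOS, 1 in AOS against control, and 86 and 1 in the group with both agents against busulfan and against control; the average and the interaction need all groups and were not run. limma on FPKM called 18 genes in busulfan against control, and 299 and 77 in the group with both agents against busulfan and against control. Without control 1 and AOS 2 together the counts were 0, 50, 9, 2, 174, 0 and 7. Whether the replicate numbers pair the samples was not settled. Same-numbered libraries correlated at -0.07 to 0.27 after removal of group means, but libraries of different number were not compared. A replicate block gave 10 genes in busulfan against control, 1 in AOS against control and 33 for the interaction. For the 9 genes it gave 3 in busulfan with AOS against AOS and 6 averaged. The share of higher calls in busulfan with AOS against AOS was 40.6% in edgeR, 61.9% on FPKM and 51.7% on totals without haemoglobin, acinar and heat shock genes, and for the interaction 49.3%, 67.6% and 63.6%. No scaling moved the median of all genes by over 0.1. The direction turned only for uncalled values near 0. Leave-one-out ranges in AOS against control were -0.12 to 0.07 for Ebf1 (0.01, 0.07 and 0.03 without control 1, control 2 or AOS 3), -0.03 to 0.20 for Cd79b, -0.01 to 0.19 for Cd22 and -0.05 to 0.16 for Blk (the lowest of each without control 3). Cd79a in busulfan with AOS against busulfan ran from -0.15 to 0.07 (0.03 on FPKM, and 0.04, 0.07 and 0.06 without busulfan 1, busulfan 2 or library 2 with both agents). Cd22 in busulfan with AOS against control ran from -0.18 to 0.02 (0.02 without control 2 or library 2 with both agents). For the interaction, Ms4a1 ran from -0.12 to 0.11 (0.08 on FPKM, 0.03 on the reduced totals, and 0.08, 0.11, 0.11 and 0.07 without control 3, AOS 3, busulfan 2 or library 2 with both agents) and Cd79b from -0.02 to 0.25 (-0.02 without busulfan 3, and -0.06 without control 1 and AOS 2). The cause of these changes was not tested.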

Other observations

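The markers of 3 further cell types of the spleen were read in the same libraries. Plasmacytoid dendritic cell markers, several of which precursor B cells also express, had 0 of 6 genes called in any comparison and a median log2 fold change of -0.46 averaged over AOS, with sums of 357 to 375 CPM in controls, 359.9 to 573 with AOS, 266 to 347 with busulfan and 232 to 306 with both. The 573 CPM was in AOS 2, the library with the most acinar transcript. Klk1 of this list was at 110.0 ± 137 CPM with AOS against 7.93 to 9.95 CPM in the other group means, so the AOS sums may not stand for these cells. Of 6 red pulp macrophage markers Cd5l, an inhibitor of macrophage apoptosis, was called higher in busulfan with AOS against AOS, in busulfan with AOS against control and averaged, and the sums were 900.1 to 1104, 875 to 1401, 1223 to 1328 and 1061 to 1493 CPM in the same order of groups. None of 8 erythroid markers was called in any comparison, and their sums of 4779 to 7101 CPM in controls overlapped those of 6628 to 7515 CPM with busulfan.

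The count of Pax5 divided by its FPKM, which stands for the transcript length used, ran from 3584 bases in control 1 and 3589 in AOS 1 to 5331 in control 3 and 5659 in AOS 3. Of 1227 genes with at least 2000 counts, 1.87% varied by more than 1.2-fold in this way. Ebf1 varied by 1.07-fold, and the other 7 genes by 1.01-fold. On FPKM, control 1 was therefore the highest control for Pax5 at 61.6, ahead of 53.5 and 40.4, while its count level of 215 CPM lay between 239 and 213 CPM.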
